A study of Homo sapiens with 40 samples.

Results

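TAGLN, ACTA2, CALD1, SYNPO, TPM1, TPM2 and MYL9, which encode proteins of actin filaments and of the contractile apparatus, were examined together with MYOF, CCN1 and CCN2. These 10 genes were chosen by symbol from the 19962 genes of the deposited count table, and each had exactly 1 row there. All 10 passed the filter on low counts that left 11428 genes for testing. The choice was made with the responses to doxycycline (Dox) in view: TAGLN and CALD1 rose less, and ACTA2 more, with Dox in one of the 3 lines. Every value of these genes in a comparison of Dox with its control is therefore a description, with no test. The same holds for differences between Dox effects, and the SEs and intervals printed for them take no account of the choice. The siRNA comparisons were not named in the rule of choice and were tested. The genes were nevertheless chosen with earlier results of these data known, so these tests are not fully independent of the choice.

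The libraries come from RKO, an established human colorectal carcinoma cell line, in a study of IGF2BP3 and RNA metabolism during the unfolded protein response. IGF2BP2 and IGF2BP3 are RNA-binding proteins. All cells carried Dox-inducible Cas9, GFP and, from a lentiviral vector, a pair of guide RNAs under human and mouse U6 promoters with eBFP2 under a PGK promoter. The guides were directed at the AAVS1 locus (sgAAVS1, the cutting control), at IGF2BP2 (sgIGF2BP2) or at IGF2BP3 (sgIGF2BP3). Cells positive for eBFP2 were sorted once per line, and no later selection of edited cells is described. In each line 1 group received DMSO and 1 group received 250 ng/mL Dox for 72 hours. In the sgIGF2BP2 line 2 further groups were transfected at 75 nM for 48 hours, with a non-targeting siRNA (siControl) or with a pool of siRNAs against IGF2BP2 (siIGF2BP2). The sgIGF2BP3 line had siControl and a pool against IGF2BP3 (siIGF2BP3) in the same way, and no Dox is listed for transfected cells. All cells received 250 µM of the nucleoside s4U for 2 hours, and the counts used here cover new and old RNA together. The 10 groups had 4 libraries each. A condition used 1 culture well, and nothing says that the 4 libraries of a group came from separate passages. The p-values therefore measure the spread between libraries.

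Most of these genes are classical targets of SRF, serum response factor. SRF binds the CArG box and works with its coactivators MRTF-A and MRTF-B, which are held in the cytoplasm by monomeric actin and enter the nucleus when actin polymerises. CCN1 and CCN2 encode secreted matricellular proteins and are the standard readouts of YAP and TAZ, the coactivators that act through TEAD factors and are restrained by the Hippo kinases. Both routes respond to cell spreading and tension, and several genes, CCN1 and CCN2 among them, are reached by both. In the gut wall the contractile proteins are most abundant in smooth muscle and myofibroblasts, while carcinoma cells such as RKO carry lower, mostly cytoskeletal amounts.

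Total counts per library ranged from 10018181 to 24822807, with a median of 13468792. Each targeted transcript fell in its own line: IGF2BP2 with Dox by 1.34 and with siIGF2BP2 by 1.84 on the log2 scale, and IGF2BP3 with Dox by 1.68 and with siIGF2BP3 by 2.78. IGF2BP3 also fell by 0.25 with Dox in sgIGF2BP2 cells (largest adjusted p of these, 2.93e-06). Of 11 smooth muscle and fibroblast markers none passed the filter on low counts, COL1A2, DCN and LUM had no count in any of the 40 libraries, and the summed level of the list was at most 2.11 CPM (counts scaled to the library total). Of 8 epithelial markers, KRT8, KRT18, EPCAM and CDX2 were tested, CDH1, KRT19 and VIL1 stayed at or below 0.305 CPM, and LGR5 was at 0 in all libraries. One library stood apart from its replicates, sgIGF2BP2 Dox replicate 2: its chi-square statistic per gene against the 3 others was 12.0 to 16.8, and the next highest among all 60 replicate pairs was 6.58. Without it the log2 fold changes with Dox in sgIGF2BP2 cells were 0.22 for TAGLN, 1.48 for ACTA2, 0.31 for CALD1, 0.93 for SYNPO, 1.17 for MYOF, -0.04 for TPM1, 0.13 for TPM2, 0.11 for MYL9, 0.60 for CCN1, 0.21 for CCN2 and 0.84 for FAS, an overlapping neighbour of ACTA2. The values with it are given below.

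Promoter sequences are shown for ACTA2 and CCN2, since ACTA2 has separate RefSeq starts that differ in the motifs before them and CCN2 carries a cluster of TEAD motifs. They are the 250 bases before a RefSeq start (GRCh38.p14), written 5′ to 3′ on the gene's strand. Capitals mark the TEAD motif GGAATG and the CArG box with up to 1 base other than A or T in its core, each searched on both strands. The downstream ACTA2 start has the window chr10:88952774-88953023, the upstream ACTA2 start has chr10:88991338-88991587, and CCN2 has chr6:131951373-131951622, all on the minus strand.
ACTA2 downstream start: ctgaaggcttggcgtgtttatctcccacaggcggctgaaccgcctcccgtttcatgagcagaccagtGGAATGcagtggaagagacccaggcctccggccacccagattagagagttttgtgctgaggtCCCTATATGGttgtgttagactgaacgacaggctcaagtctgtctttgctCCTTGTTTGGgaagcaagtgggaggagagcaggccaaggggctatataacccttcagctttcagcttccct
ACTA2 upstream start: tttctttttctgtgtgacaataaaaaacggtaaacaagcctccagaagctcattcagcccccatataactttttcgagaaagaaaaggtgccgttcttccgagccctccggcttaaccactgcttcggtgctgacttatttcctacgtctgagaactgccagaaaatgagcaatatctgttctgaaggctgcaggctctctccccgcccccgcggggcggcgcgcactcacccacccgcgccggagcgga
CCN2: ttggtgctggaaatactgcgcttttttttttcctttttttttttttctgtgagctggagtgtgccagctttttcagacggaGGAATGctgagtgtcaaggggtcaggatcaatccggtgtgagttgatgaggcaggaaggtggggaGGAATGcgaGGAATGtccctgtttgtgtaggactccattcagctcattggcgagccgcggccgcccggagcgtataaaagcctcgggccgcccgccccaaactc
The downstream ACTA2 window holds 2 such CArG boxes, first bases 121 and 71 before the start, and 1 TEAD motif at 183. The upstream ACTA2 window holds neither motif. Its start lies 94, 423 and 539 bases from the 3 RefSeq starts of FAS, which is transcribed in the other direction, whereas the downstream start lies 38025 bases or more away. CCN2 holds 3 TEAD motifs, at 169, 104 and 95. RefSeq windows were matched for 7 of the 10 genes, 13 windows in all, and for TAGLN, MYL9 and CCN1 none was used. The TEAD motif was present in 4 of those 13 windows (ACTA2, CALD1 and CCN2) and in 11.9% of all 35116 promoter windows of this length. The CArG box with up to 1 other base was in 2 of 13 (ACTA2 and CALD1) against 7.04%, and the strict form was in 0 of 13 against 1.16%. A match is a description of letters and not a measured binding site.

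Levels among untreated cells spanned about 2 orders of magnitude per length. CPM values (scaled by TMM factors) were divided by the exon length of each gene in GENCODE 29 and compared over the 12 DMSO libraries. CCN1 was highest, with a median of 46.5 CPM per kb and a range of 43.6 to 48.2. MYL9, the regulatory light chain of non-muscle and smooth muscle myosin, followed at 24.5, then CCN2 at 13.5 and TPM2, a tropomyosin that lies along the actin filament, at 12.4. CCN2 and TPM2 overlapped in their ranges. TPM1 (3.95), TAGLN (3.60) and CALD1 (3.53) formed a middle group whose neighbours overlapped. The lowest were ACTA2 at 1.17 and SYNPO at 0.807, which overlapped, and MYOF at 0.476. The smooth muscle actin ACTA2 was thus expressed at a low level, with 23 to 195 counts in a library, and MYOF had 20 to 134, so both carry wider errors than the other genes.

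With Dox, TAGLN was 1.99-fold higher where AAVS1 was cut, 1.95-fold where IGF2BP3 was cut and 1.22-fold where IGF2BP2 was cut. TAGLN encodes transgelin (SM22), an actin cross-linking protein and an SRF target. The sgAAVS1 values were 13.9, 15.2, 14.4 and 13.8 CPM for DMSO and 30.3, 28.2, 30.4 and 24.9 for Dox. The sgIGF2BP3 values were 15.4, 15.3, 13.4 and 14.3 for DMSO and 28.4, 27.5, 30.2 and 27.8 for Dox. The Dox libraries of both lines lay far above their controls, at about the same height. In sgIGF2BP2 cells TAGLN measured 13.4, 15.1, 13.6 and 12.5 CPM with DMSO and 15.3, 18.2, 16.7 and 15.9 with Dox, so the groups were separate but close. The log2 fold changes (± SE) were 0.99 ± 0.08 in sgAAVS1, 0.96 ± 0.08 in sgIGF2BP3 and 0.28 ± 0.08 in sgIGF2BP2 cells, and 0.22 in the last without Dox replicate 2. The Dox effect in sgIGF2BP2 cells was 0.71 ± 0.11 smaller than in sgAAVS1 cells, with a 95% interval of the difference from -0.93 to -0.49. Between sgIGF2BP3 and sgAAVS1 cells it was -0.03 ± 0.11 (-0.24 to 0.18).

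ACTA2 went the other way between the lines. It measured 2.40, 2.83, 3.01 and 4.01 CPM with DMSO and 9.80, 10.8, 7.72 and 8.23 with Dox in sgIGF2BP2 cells, a 3.00-fold difference (log2 1.59 ± 0.15; 1.48 without Dox replicate 2). In sgAAVS1 cells the values were 3.79, 3.93, 3.28 and 4.00 with DMSO and 4.99, 4.01, 5.27 and 5.61 with Dox, which did not overlap but nearly met, at 4.00 and 4.01. In sgIGF2BP3 cells, 3.70, 2.77, 2.54 and 3.93 with DMSO overlapped 2.99, 3.70, 4.43 and 3.65 with Dox. The 4 sgIGF2BP2 Dox libraries were the highest of all 40 for this gene. The log2 fold change was 0.40 ± 0.17 in sgAAVS1 and 0.19 ± 0.18 in sgIGF2BP3 cells, and the effect in sgIGF2BP2 cells exceeded that in sgAAVS1 cells by 1.18 ± 0.23 (95% interval 0.73 to 1.64). In sgIGF2BP2 cells the summed level of the 11 smooth muscle and fibroblast markers was 0.573 to 1.24 CPM (DMSO) and 0.829 to 2.11 (Dox). It was 0.542 to 1.36 and 0.809 to 0.909 in sgAAVS1 cells, and 0.412 to 1.00 and 0.787 to 1.15 in sgIGF2BP3 cells. COL1A2, DCN and LUM were at 0 throughout. Each of the others was detected in some library, up to 1.1 CPM for COL1A1, 1.0 for RGS5 and 0.286 for MYH11. The part of such cells in the ACTA2 result was not tested. In bulk libraries a change in the share of cells of a type and a change in RNA per cell cannot be told apart.

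CALD1 encodes caldesmon, which binds actin, tropomyosin and calmodulin and restrains myosin. Its Dox response was graded over the lines. In sgAAVS1 cells CALD1 measured 31.4, 32.0, 33.4 and 33.0 CPM with DMSO and 56.0, 53.9, 57.8 and 57.5 with Dox. In sgIGF2BP3 cells it went from 35.8, 35.0, 34.5 and 38.2 to 51.3, 53.7, 53.6 and 50.9. In sgIGF2BP2 cells it went from 36.1, 39.1, 38.3 and 34.0 to 46.6, 42.4, 46.2 and 44.5. No library of a Dox group overlapped its DMSO group. The log2 fold changes were 0.79 ± 0.06, 0.54 ± 0.05 and 0.28 ± 0.06 in that order, so the effect in sgIGF2BP2 cells was 0.51 ± 0.08 below that in sgAAVS1 cells. Against sgAAVS1 cells the sgIGF2BP3 effect was 0.25 ± 0.08 lower. The DMSO libraries of sgAAVS1 cells all lay below those of both other lines (means of 32.5, 35.9 in sgIGF2BP3 and 36.9 CPM in sgIGF2BP2 cells). Part of these differences between effects thus lies in the DMSO levels.

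SYNPO, synaptopodin, an actin-bundling regulator of RhoA signalling, showed a different split of the lines. Its log2 fold change with Dox was 0.90 ± 0.09 in sgAAVS1 cells (8.26 to 9.01 CPM with DMSO, 15.1 to 17.4 with Dox) and 0.87 ± 0.10 in sgIGF2BP2 cells (6.87 to 7.98 against 12.5 to 14.9). In sgIGF2BP3 cells it was 0.42 ± 0.10 (7.28 to 9.77 against 10.5 to 12.0). Here the line with the smaller rise was sgIGF2BP3, by 0.48 ± 0.13 relative to sgAAVS1, whereas sgIGF2BP2 and sgAAVS1 differed by -0.03 ± 0.13 (95% interval -0.29 to 0.23).

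The myosin light chain and the tropomyosins moved less. In sgAAVS1 cells MYL9 averaged 69.5 ± 0.683 CPM with DMSO and 97.2 ± 5.79 CPM after Dox (SD, n = 4), a log2 fold change of 0.48 ± 0.05. For sgIGF2BP3 cells the change was 0.35 ± 0.05, and for sgIGF2BP2 cells it was 0.14 ± 0.05 with overlapping libraries. As for TAGLN and CALD1, the sgIGF2BP2 effect of MYL9 was below that of sgAAVS1, by 0.35 ± 0.07. TPM2 changed by 0.38 ± 0.05, 0.14 ± 0.05 and 0.17 ± 0.05 in sgAAVS1, sgIGF2BP2 and sgIGF2BP3 cells, from means of 41.0, 40.7 and 38.7 CPM. The sgIGF2BP2 value was 0.08 without DMSO replicate 3. TPM1 stayed within 0.13 of its control on the log2 scale in all 3 lines, and its Dox and DMSO libraries overlapped in each.

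**Figure D1:**
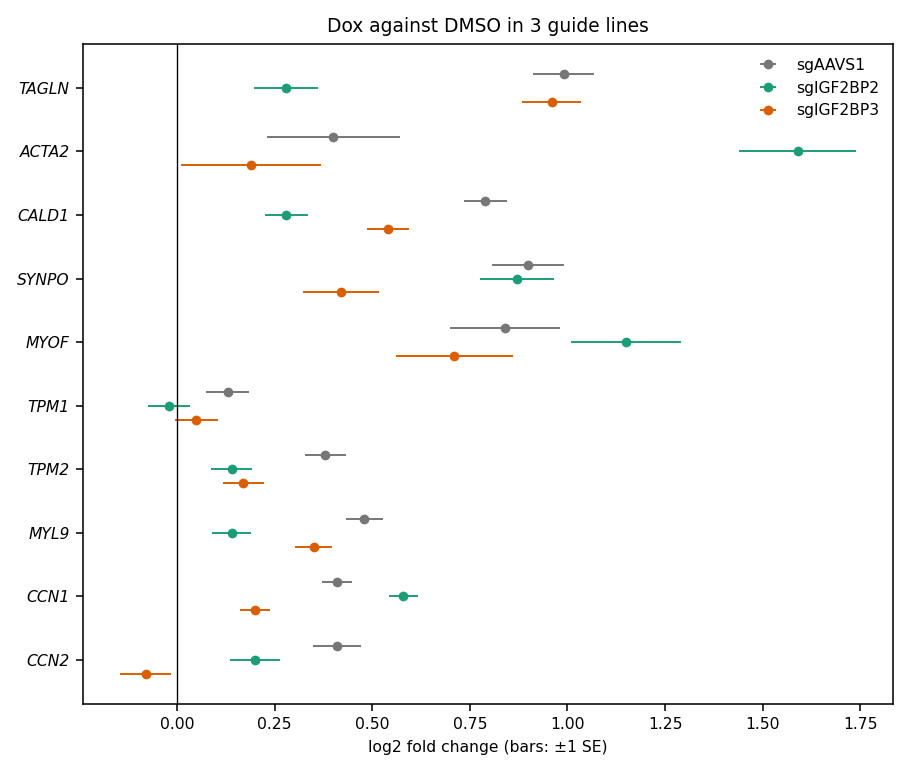
Log2 fold change of Dox against DMSO (x axis) for the 10 genes (y axis) in the 3 guide lines; points are fitted values and bars are ±1 SE from 4 against 4 libraries. In sgIGF2BP2 cells TAGLN and CALD1 are both at 0.28 and ACTA2 at 1.59, against 0.99, 0.79 and 0.40 in sgAAVS1 cells.

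MYOF, myoferlin, a ferlin that takes part in membrane repair and vesicle fusion, was higher with Dox in every line. The sgAAVS1 libraries held 3.71 to 4.47 CPM for DMSO and 6.14 to 8.67 for Dox. The ranges were 1.66 to 4.08 and 7.29 to 8.61 in sgIGF2BP2 cells, and 3.32 to 4.06 and 5.51 to 7.44 in sgIGF2BP3 cells. None of these pairs of groups overlapped, and the log2 fold changes were 0.84 ± 0.14, 1.15 ± 0.14 and 0.71 ± 0.15. The lowest sgIGF2BP2 DMSO value belongs to replicate 1. The widest difference between lines was that of sgIGF2BP3 minus sgIGF2BP2, -0.43 ± 0.21 (95% interval -0.84 to -0.02). Without sgIGF2BP2 DMSO replicate 1 it was -0.25, and the sgIGF2BP2 change itself 0.96.

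CCN1 and CCN2, the secreted YAP and SRF targets, had their largest Dox changes in different lines, CCN1 in sgIGF2BP2 and CCN2 in sgAAVS1 cells. In sgAAVS1 cells CCN1 measured 114, 116, 116 and 115 CPM for DMSO and 154, 149, 158 and 153 for Dox. In sgIGF2BP2 cells it measured 107, 114, 118 and 117, then 167, 165, 180.2 and 172. In sgIGF2BP3 cells the values were 110.4, 108, 107 and 107 and then 124, 126, 129 and 120.4, so that all Dox groups lay above their controls. The log2 fold changes were 0.41 ± 0.04, 0.58 ± 0.04 and 0.20 ± 0.04. For CCN2 the sgAAVS1 values were 30.5, 33.1, 32.3 and 32.3 CPM for DMSO and 42.6, 45.5, 43.6 and 39.1 for Dox (0.41 ± 0.06). Its change was 0.20 ± 0.06 in sgIGF2BP2 cells, and in sgIGF2BP3 cells it was -0.08 ± 0.07 with overlapping libraries. Relative to sgAAVS1 cells, the CCN2 effect was 0.49 ± 0.09 lower in sgIGF2BP3 and 0.21 ± 0.09 lower in sgIGF2BP2 cells, while the CCN1 effect was 0.21 ± 0.06 lower and 0.17 ± 0.05 higher.

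Counted over the 10 genes, all 4 Dox libraries lay above all 4 DMSO libraries for 9 genes in sgAAVS1, 8 in sgIGF2BP2 and 7 in sgIGF2BP3 cells, and below them for 0. Because the genes were picked from these contrasts, nothing is read from those counts. The share of all genes separated in this way was not counted, and the shares of called genes that follow are a different measure. As background for the tests below, where a gene is called at a Benjamini-Hochberg adjusted p under 0.05 over all genes tested (edgeR quasi-likelihood test), 7.25% of all genes were called higher with Dox and 8.68% lower in the sgAAVS1 line, 10.0% and 10.4% in sgIGF2BP2 cells, and 1.64% and 1.01% in sgIGF2BP3 cells. The median log2 fold change of the 10 was 0.45, 0.28 and 0.28, beside medians over all genes of 0.0044, 0.0077 and 0.0027. The 3 Dox effects do not share libraries with each other, whereas their differences do.

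In the siRNA comparisons 7 of the 10 genes rose with siIGF2BP2 and none fell, against 18.4% of all tested genes called higher and 18.4% called lower. With siIGF2BP3, 2 of 10 rose and 0 fell, against 0.936% called higher and 1.40% lower. The medians over the 10 genes were 0.20 and 0.13, beside all-gene medians of 0.011 and 0.0015. CALD1 was called with both pools. With siIGF2BP2 it measured 71.4, 70.0, 67.4 and 68.1 CPM against 42.0, 41.0, 43.7 and 44.1 with siControl, the highest CALD1 level of any group (log2 fold change 0.70 ± 0.05, adjusted p = 9.02e-19). With siIGF2BP3 it measured 59.3, 54.4, 50.6 and 51.1 against 49.2, 42.3, 39.9 and 42.9 (0.31 ± 0.05, adjusted p = 2.87e-05). Neither pair of groups overlapped. The siIGF2BP3 effect on CALD1 was 0.38 ± 0.07 smaller than the siIGF2BP2 effect (adjusted p = 6.09e-05).

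TAGLN rose with siIGF2BP2, from 15.0, 14.4, 12.3 and 12.5 CPM to 17.1, 18.8, 19.3 and 18.0, by 0.43 ± 0.08 on the log2 scale (adjusted p = 1.69e-05). For siIGF2BP3 the TAGLN change was 0.19 ± 0.09 with overlapping libraries (14.1, 13.7, 14.9 and 12.3 CPM against 14.5, 15.9, 17.8 and 14.7; adjusted p = 0.266). The difference between both TAGLN effects was -0.23 ± 0.12 (adjusted p = 0.167). ACTA2 did not pass the test with siIGF2BP2: 2.70, 3.41, 1.73 and 2.26 CPM with siControl overlapped 2.25, 3.16, 2.90 and 2.81 with siIGF2BP2, and the log2 fold change was 0.13 ± 0.20 (95% interval -0.26 to 0.52, adjusted p = 0.646). The same holds for siIGF2BP3, at 0.10 ± 0.20 (-0.29 to 0.49, adjusted p = 0.889). SYNPO did not pass either, at -0.11 ± 0.12 and -0.18 ± 0.12 for siIGF2BP2 and siIGF2BP3.

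Among the others, siIGF2BP2 raised MYOF by 0.57 ± 0.13 (5.04 to 6.16 CPM with siControl, 7.14 to 9.08 with the pool; adjusted p = 0.00027) and CCN1 by 0.28 ± 0.04 (75.3 to 80.4 against 89.7 to 100.4; adjusted p = 1.09e-07). These groups did not overlap. Smaller rises with siIGF2BP2 were those of CCN2 (0.24 ± 0.08, adjusted p = 0.0101), TPM1 (0.16 ± 0.05, adjusted p = 0.00991) and TPM2 (0.16 ± 0.05, adjusted p = 0.014). The calls of CCN2, TPM1 and TPM2 were each lost in 2 of 14 alternative fits, with adjusted p up to 0.109: for CCN2 without siControl or siIGF2BP2 replicate 1, for TPM1 without siControl replicate 2 or siIGF2BP2 replicate 3, and for TPM2 without siControl replicate 2 or after thinning to equal depth. MYL9 stood at the threshold with both pools, at 0.12 ± 0.05 (adjusted p = 0.0535) and 0.17 ± 0.05 (adjusted p = 0.0512), and passed in 4 and 5 of 14 alternatives, among them leaving out siControl replicate 3 or 4 or siIGF2BP2 replicate 4, and siIGF2BP3 replicate 4. CCN2 was the second gene to rise with siIGF2BP3, by 0.30 ± 0.08 (adjusted p = 0.0208), from 14.5, 15.2, 13.4 and 17.6 CPM to 20.6, 17.4, 18.4 and 18.4. That call was lost in 5 of 14 alternatives (adjusted p up to 0.161), which were thinning and leaving out siControl replicate 1, 2 or 3 or siIGF2BP3 replicate 1.

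A direct test of the siIGF2BP3 effect minus the siIGF2BP2 effect called 3 of the 10 genes lower and 0 higher, beside 8.82% and 9.88% of all genes. Besides CALD1 these were TPM1 (-0.23 ± 0.08, adjusted p = 0.0221) and CCN1 (-0.19 ± 0.06, adjusted p = 0.0179). TPM1 lost its call in 5 and CCN1 in 4 of 22 alternatives, with adjusted p up to 0.0769 and 0.0744. For TPM1 these were thinning and leaving out siControl replicate 2 or siIGF2BP2 replicate 3 of the sgIGF2BP2 line, or siControl replicate 3 or siIGF2BP3 replicate 4 of the sgIGF2BP3 line. For CCN1 they were thinning and leaving out siIGF2BP2 replicate 4, or siControl replicate 3 or 4 of the sgIGF2BP3 line. For CCN2 the difference was 0.06 ± 0.11 (95% interval -0.16 to 0.27), and for MYL9 it was 0.05 ± 0.07 (-0.09 to 0.19).

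**Figure D2:**
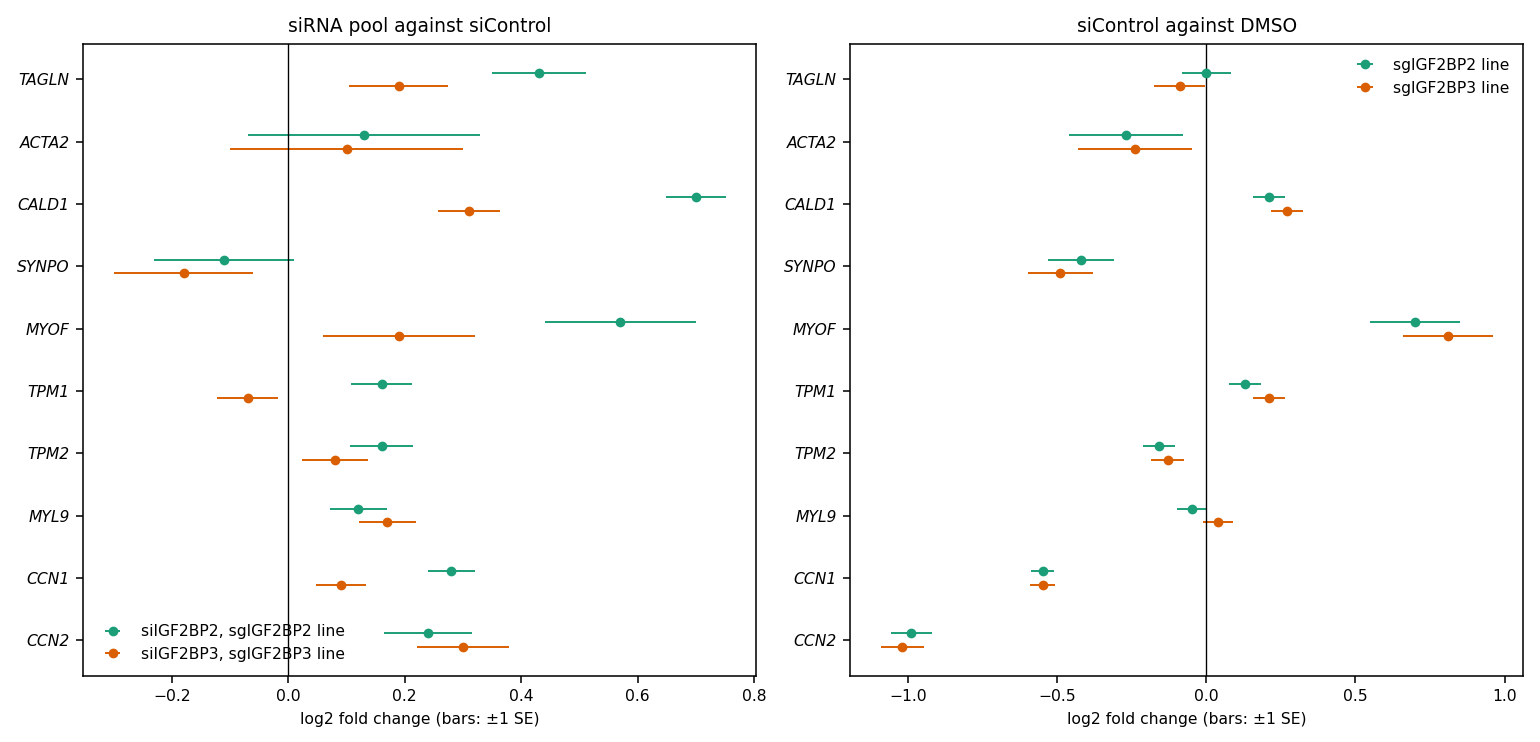
Log2 fold change (x axis) of the 10 genes (y axis) for each siRNA pool against siControl on the left and for siControl against DMSO on the right, green for sgIGF2BP2 cells and orange for sgIGF2BP3 cells; bars are ±1 SE. With siIGF2BP2, CALD1 is at 0.70; with siControl, CCN2 lies at -0.99 and -1.02 and MYOF at 0.70 and 0.81.

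CCN1 and CCN2 were lower with siControl than with DMSO in both lines. CCN2 measured 35.8, 30.8, 30.4 and 32.8 CPM with DMSO and 14.1, 15.9, 18.3 and 17.0 with siControl in sgIGF2BP2 cells, and 32.5, 30.4, 30.6 and 29.7 against 14.5, 15.2, 13.4 and 17.6 in sgIGF2BP3 cells. These falls, of 0.99 ± 0.07 and 1.02 ± 0.07 on the log2 scale, left CCN2 at 0.503 and 0.493 of its DMSO level (adjusted p = 1.05e-18 and 1.74e-18). CCN1 fell by 0.55 ± 0.04 in both lines, from means of 114 and 108 CPM to 78.0 and 74.2 (adjusted p = 6.93e-18 and 2.06e-17). SYNPO fell by 0.42 ± 0.11 and 0.49 ± 0.11 (adjusted p = 0.00315 and 0.000472), and the first of these was -0.27 with adjusted p = 0.206 after thinning to equal depth. MYOF rose instead, by 0.70 ± 0.15 and 0.81 ± 0.15 (adjusted p = 0.00029 and 2.15e-05), and so did CALD1, by 0.21 ± 0.05 and 0.27 ± 0.06 (adjusted p = 0.00334 and 0.000125). TAGLN, at 0.00 ± 0.08 and -0.09 ± 0.09, passed in neither line.

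In all, 2 genes rose and 4 fell with siControl in sgIGF2BP2 cells, beside 10.2% and 8.16% of all genes, and 3 rose and 3 fell in sgIGF2BP3 cells, beside 10.9% and 8.54%. TPM1 was the third that rose in sgIGF2BP3 cells (0.21 ± 0.05, adjusted p = 0.00345), and TPM2 the fourth that fell in sgIGF2BP2 cells (-0.16 ± 0.05, adjusted p = 0.0283, lost in 5 of 14 alternatives: without the low-count filter, without DMSO replicate 1, 2 or 4, and without siControl replicate 2). The DMSO libraries are those of the Dox comparisons, and the siControl libraries those of the siRNA comparisons, so these effects are not independent of the ones above. The DMSO and siControl groups differ in transfection as well as in the siRNA, and whether transfected cells also received DMSO is not stated, so these cannot be told apart. Between the 2 siControl groups, 0 of 10 genes were called, 0 had an unadjusted p under 0.05 and 0 were called by DESeq2, beside 0.0175% of all genes called by edgeR.

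Other genes of the same pathways were read from 3 lists that hold none of the 10. These lists too were chosen with earlier results of these data known. The list of actin cytoskeleton and SRF genes had 34 members, 27 of them tested. With Dox, 5 rose and 6 fell in the sgAAVS1 line, 3 and 8 in sgIGF2BP2 cells, and 2 and 1 in sgIGF2BP3 cells, with medians of -0.017, -0.065 and 0.054. The calls thus went in both directions, beside the shares of all genes given above. The TAGLN paralogue TAGLN2 rose by 0.33 ± 0.03 in sgAAVS1 and 0.18 ± 0.03 in sgIGF2BP3 cells (adjusted p = 5.58e-12 and 0.000267). The tropomyosins TPM3 and TPM4 fell by 0.28 ± 0.03 and 0.23 ± 0.03 with Dox in sgIGF2BP2 cells (adjusted p = 6.87e-12 and 1.61e-08). The cytoplasmic actin ACTB fell in all 3 lines, by 0.11 ± 0.03 in sgAAVS1, 0.14 ± 0.03 in sgIGF2BP2 and 0.17 ± 0.03 in sgIGF2BP3 cells (adjusted p = 0.0246, 0.00103 and 0.000759). ACTG1, the other cytoplasmic actin, fell by 0.22 ± 0.03 in sgAAVS1 and 0.13 ± 0.03 in sgIGF2BP2 cells and rose by 0.10 ± 0.03 in sgIGF2BP3 cells (adjusted p = 4.27e-08, 0.00056 and 0.0433). With siIGF2BP2, 4 of the 27 rose and 6 fell, beside 18.4% of all genes in each direction, TPM4 the most, by 0.27 ± 0.03 (adjusted p = 1.17e-11). With siIGF2BP3 none was called.

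Of 21 further YAP and TEAD targets 14 were tested. With Dox, 2 rose and 2 fell in the sgAAVS1 line, beside 7.25% and 8.68% of all genes. The counts were 4 and 1 in sgIGF2BP2 cells, beside 10.0% and 10.4%, and 0 in sgIGF2BP3 cells, beside 1.64% and 1.01%. NT5E, the ecto-enzyme CD73, rose by 0.70 ± 0.12 with Dox in sgIGF2BP2 cells (adjusted p = 3.14e-06) and fell by 0.78 ± 0.13 with siIGF2BP2 (adjusted p = 1.69e-06). GADD45A, a stress-induced growth arrest gene, rose by 0.54 ± 0.05 in the former comparison (adjusted p = 2.21e-12). AMOTL2, an angiomotin that binds YAP, rose by 0.20 ± 0.06 with Dox in sgAAVS1 cells (adjusted p = 0.00624), and the receptor kinase AXL fell by 0.14 ± 0.03 there (adjusted p = 0.00072). With siIGF2BP2, 1 of the 14 rose and 3 fell, beside 18.4% of all genes in each direction, and with siIGF2BP3 none was called, beside 0.936% and 1.40%.

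Of 29 regulators of both pathways 28 were tested, and with siIGF2BP2 2 rose and 10 fell, beside 18.4% of all genes called in each direction, with a median of -0.088 beside 0.011 over all genes. YAP1 itself fell by 0.71 ± 0.05, from 110.0 ± 5.07 to 67.5 ± 5.14 CPM (SD, n = 4; adjusted p = 8.98e-21). PPP1R12A, the myosin phosphatase targeting subunit, fell by 0.48 ± 0.05 (adjusted p = 1.99e-11). CCN1 and CCN2 were higher in these same libraries than with siControl. With Dox in sgIGF2BP2 cells neither YAP1 (-0.07 ± 0.05, adjusted p = 0.335) nor PPP1R12A (-0.10 ± 0.05, adjusted p = 0.16) was called. In total, 1 regulator rose and 0 fell with Dox in the sgAAVS1 line, beside 7.25% and 8.68% of all genes. The counts were 3 and 4 in sgIGF2BP2 cells, beside 10.0% and 10.4%, and 2 and 0 in sgIGF2BP3 cells, beside 1.64% and 1.01%. With siIGF2BP3, 0 rose and 3 fell, beside 0.936% and 1.40% of all genes. These were the Hippo scaffold MOB1A (-0.26 ± 0.04, adjusted p = 1.24e-06), RHOA (-0.21 ± 0.03, adjusted p = 1.21e-06) and STK4 (-0.16 ± 0.04, adjusted p = 0.00231). MOB1A and STK4 also fell with siIGF2BP2, by 0.26 ± 0.04 and 0.27 ± 0.04 (adjusted p = 6.5e-08 and 3.39e-09). RHOA was not called with siIGF2BP2 (-0.06 ± 0.03, adjusted p = 0.138).

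**Figure D3:**
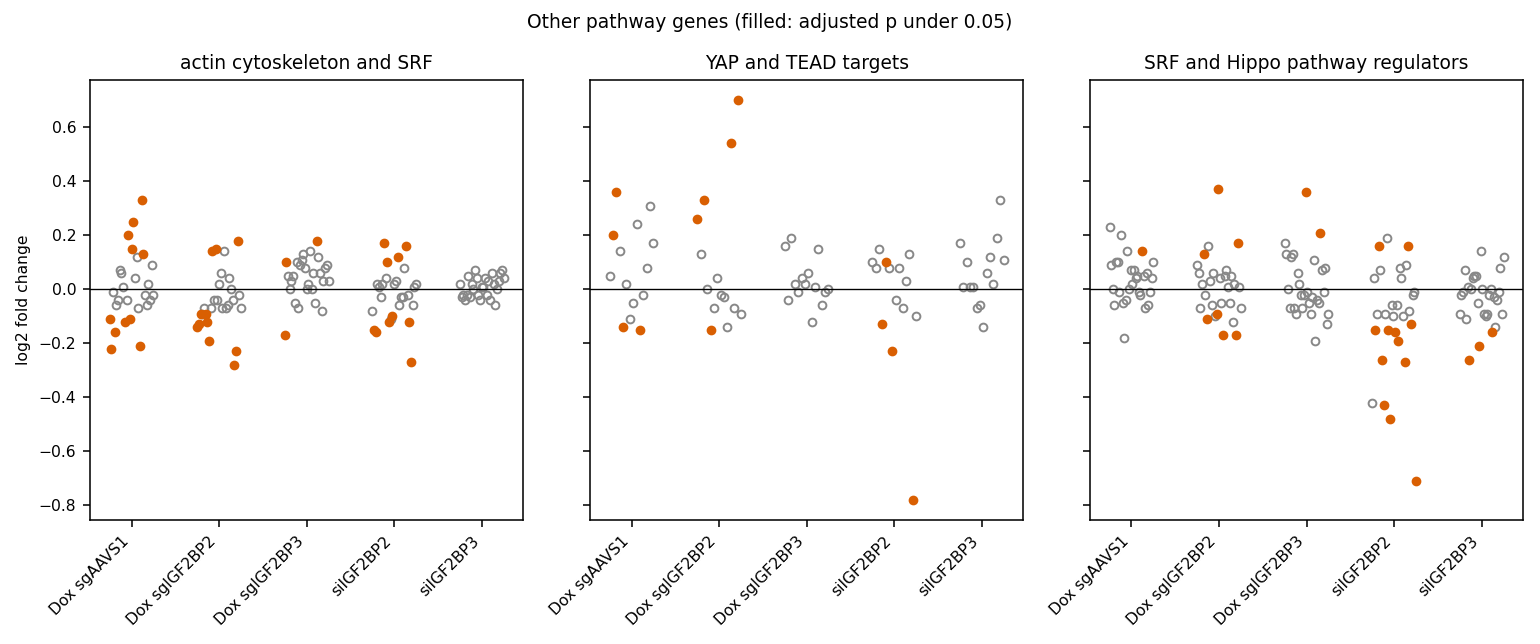
Log2 fold change (y axis) of the other pathway genes in 3 lists (panels) for 3 Dox and 2 siRNA comparisons (x axis); each point is a gene, and filled orange points passed the adjusted threshold of 0.05. Calls lie on both sides of 0, and the lowest points with siIGF2BP2 are NT5E at -0.78 and YAP1 at -0.71.

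ACTA2 and TAGLN share exon bases with a gene on the opposite strand, and whether the counting used strand is not given in the sources used here, although the library kit marks strand. In GENCODE 29, ACTA2 (chr10:88935074-88991339, minus strand) shares 380 exon bases, 12.8% of its exons, with FAS, the death receptor gene. TAGLN (chr11:117199321-117204782, plus strand) shares 446 bases, 11.4%, with PCSK7, a proprotein convertase. If strand was not used, reads from these stretches cannot be assigned to one gene. FAS rose with Dox in all lines, by 0.61 ± 0.07 in sgAAVS1, 0.86 ± 0.07 in sgIGF2BP2 and 0.31 ± 0.07 in sgIGF2BP3 cells (adjusted p = 9.54e-10, 3.07e-16 and 0.00786). In sgIGF2BP2 cells it measured 14.9, 18.3, 19.2 and 18.9 CPM with DMSO and 33.2, 33.9, 29.5 and 33.4 with Dox. FAS and ACTA2 were thus both highest in the sgIGF2BP2 Dox libraries, with a log2 fold change of ACTA2 that was larger than that of FAS there and smaller in the other lines. With siIGF2BP2 FAS fell by 0.45 ± 0.08 (adjusted p = 9.83e-07), where ACTA2 stood at 0.13 ± 0.20. PCSK7 stayed within 0.06 of its control in the 3 Dox comparisons, where TAGLN differed by up to 0.99, and rose by 0.17 ± 0.04 with siIGF2BP2 (adjusted p = 0.001). The part of FAS reads in the ACTA2 counts was not tested.

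**Figure D4:**
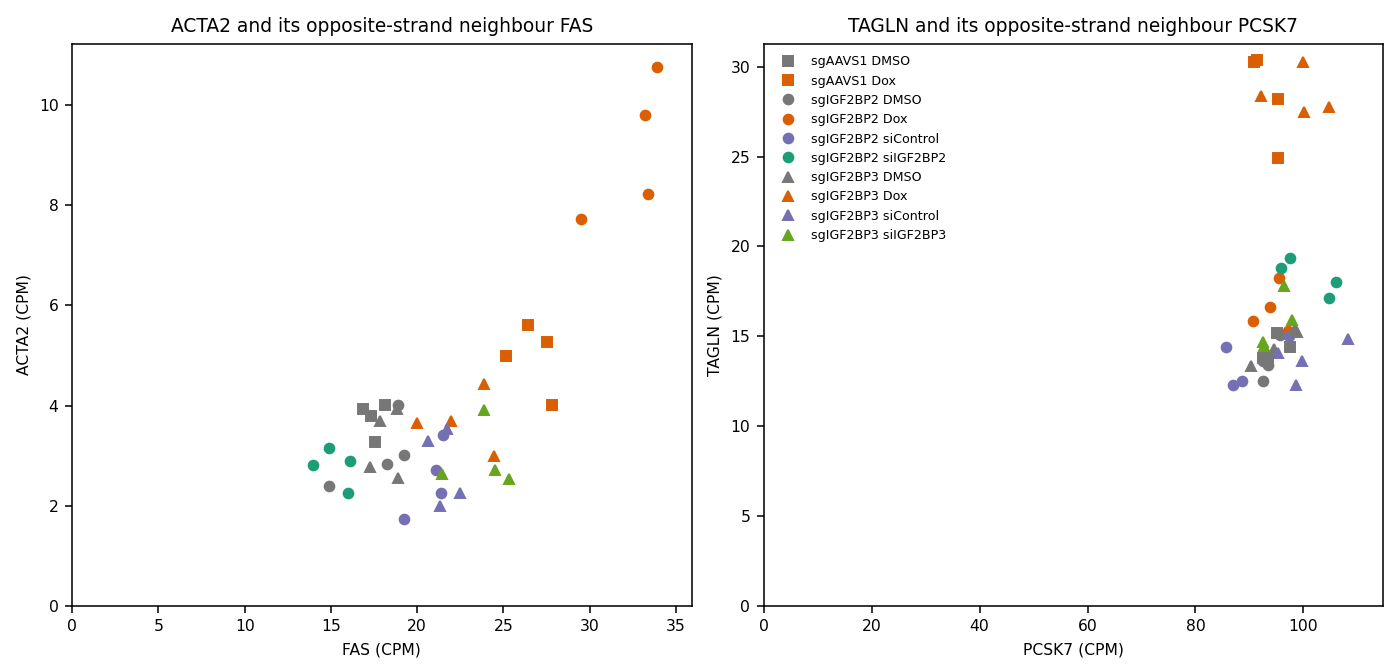
CPM of ACTA2 against FAS (left) and of TAGLN against PCSK7 (right), each point 1 of the 40 libraries, shaped by line and coloured by treatment, axes linear from 0. The 4 sgIGF2BP2 Dox libraries lie at the upper right on the left, at 29.5 to 33.9 CPM of FAS. On the right TAGLN spans 12.3 to 30.4 CPM and PCSK7 85.75 to 108.3 CPM.

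TPM1 and CCN2 also share exon bases with antisense transcripts that have no row in the table: TPM1 2070 with TPM1-AS and 691 with a second antisense gene, and CCN2 195 with AL133346.1. ACTA2 likewise shares 516 bases with ACTA2-AS1. The other 6 genes shared none. They lie at chr7:134744252-134970728 (CALD1, plus), chr5:150601080-150659220 (SYNPO, plus), chr10:93306429-93482317 (MYOF, minus), chr9:35681992-35690121 (TPM2, minus), chr20:36541484-36551447 (MYL9, plus) and chr1:85580761-85583962 (CCN1, plus; CYR61 in GENCODE 29). TPM1 lies at chr15:63042632-63071915 on the plus strand and CCN2 (CTGF in GENCODE 29) at chr6:131948176-131951373 on the minus strand.

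The 10 genes did not share 1 pattern. Across the 10 group means of log2 CPM, which share libraries, depth and lines between genes, Pearson's r was 0.94 between CCN1 and CCN2, 0.93 between SYNPO and CCN1 and 0.92 between TAGLN and MYL9. CALD1 went with MYOF (0.83), and TPM1 ran against CCN2 (-0.74), while ACTA2 and CALD1 were at 0.00. By the same measure over the tested genes whose mean log2 CPM reached 2, the gene nearest to TAGLN was KLHL20 (0.971), followed by UCP2 (0.953) and MYL9 (0.923). Nearest to ACTA2 were SAT1 (0.974), CSNK1E (0.973) and SHF (0.962), and nearest to CALD1 MELTF (0.959). SYNPO was nearest to JUNB (0.978), an immediate early gene, MYOF to HLA-F (0.968), CCN1 to C1orf122 (0.984) and CCN2 to AMOTL2 (0.978). MYL9 was nearest to ALDH5A1 (0.986), TPM1 to RNF168 (0.980) and TPM2 to CAPRIN2 (0.972). These are descriptions over 10 points, chosen as the highest of many, and carry no test.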

How the data were processed

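Poly(A) RNA of 40 SLAMseq libraries was analysed as total counts. The authors deposited whole-number read counts per gene, not normalized; per the submitters' processing notes bcl2fastq 2.20.0.422, STAR 2.7.5c and hg38 were used, and the counting tool, its strand setting and the annotation are not given in the sources used here. Every row carried a gene identifier, and 4125 genes had no count in any library. Genes were kept with filterByExpr (11428 of 19962, 99.976% of counts), scaled by TMM (factors 0.978 to 1.03) and fitted with edgeR 4.0.16 (glmQLFit, glmQLFTest; R 4.3.3) on all 40 libraries, 1 coefficient for each group, for 12 contrasts. P-values were adjusted over all genes tested and called under 0.05. SE is the log2 fold change divided by the square root of F, and intervals are 95%. The common biological coefficient of variation was 3.79%. The procedure was tested on simulated data. The 10 genes and all lists were chosen with earlier results of these data known. Named are the 10 genes, genes sharing their exons, IGF2BP2 and IGF2BP3, up to 2 called rises and 2 falls per list and contrast (mean log2 CPM of at least 2, all of which are plotted and some printed), and the 3 genes with the closest group means. Alternatives were DESeq2 1.42.0, RLE scaling, no low-count filter, a replicate block, the compared groups alone, thinning to the smallest total, and leaving out each library. Names and exons come from GENCODE 29 (19847 identifiers matched), promoters from RefSeq (GRCh38.p14). An uncalled gene is not shown to be unchanged, since differences above the stated SE also went uncalled. TAGLN with siIGF2BP3, at 0.19 ± 0.09, is an example.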

Additional observations from a re-analysis of the deposited data

Results flagged for a closer look

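Of 100 groups of 4 libraries (10 genes in 10 groups), 5 had a highest or lowest library set far apart from the other 3 by Dixon's ratio at the 95% level, and chance gives about 1 in 20. The libraries were ACTA2 at 3.92 CPM in sgIGF2BP3 siIGF2BP3 replicate 4, MYOF at 8.61 CPM in sgIGF2BP2 Dox replicate 4 and at 7.44 CPM in sgIGF2BP3 Dox replicate 4, TPM2 at 43.7 CPM in sgAAVS1 DMSO replicate 1, and CCN2 at 30.8 CPM in sgIGF2BP3 Dox replicate 3. In 3 genes the siRNA effects differed between the pools by a test of the difference itself: the siIGF2BP3 effect minus the siIGF2BP2 effect was -0.38 for CALD1, -0.23 for TPM1 and -0.19 for CCN1 (edgeR adjusted p = 6.09e-05, 0.0221 and 0.0179).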

How the results depend on the processing

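Of the 12 contrasts, none moved its all-gene median by more than 0.0057 under another scaling. Leaving out 1 library at a time, the called genes among the 10 numbered 5 to 8 for siIGF2BP2 (7), 1 to 3 for siIGF2BP3 (2) and 1 to 3 for the difference of siRNA effects (3); thinning to the smallest total left 1 for siIGF2BP3 and 1 for the difference, as did leaving out sgIGF2BP3 siControl replicate 3. Called list genes with Dox in sgIGF2BP3 cells numbered 3 to 6 (5), with 3 when DMSO replicate 3 or 4 or Dox replicate 3 or 4 was left out. The median of the 10 with Dox in sgIGF2BP2 cells was 0.245 to 0.314 (0.282). Signs turned where a value was uncalled and near 0. Thinning gave -0.01 for ACTA2 with siIGF2BP3, -0.01 for TAGLN between siControl groups and -0.04 for CCN2 in the siRNA difference. Leave-one-out ranges were -0.06 to 0.24 for ACTA2 with siIGF2BP3, -0.01 to 0.30 with siIGF2BP2, -0.04 to 0.27 between siControl groups and -0.20 to 0.11 in the siRNA difference. They were -0.06 to 0.05 for TAGLN with siControl against DMSO in sgIGF2BP2 cells, -0.04 to 0.07 for TAGLN and -0.03 to 0.06 for CALD1 between siControl groups. In siControl against DMSO, TPM1 was called in sgIGF2BP2 cells without DMSO replicate 1 and TPM2 in sgIGF2BP3 cells after thinning. Thinning moved SYNPO with Dox to 1.09 and 1.04 in sgAAVS1 and sgIGF2BP2 cells, MYOF in sgIGF2BP2 cells to 1.28 (1.29 without DMSO replicate 3) and ACTA2 with Dox in sgIGF2BP3 cells to -0.05. Same-numbered libraries deviated together weakly at most (r from -0.09 to 0.092, 32 pairs, own number best in 10). In siControl against DMSO of sgIGF2BP2 cells every replicate correlated best with its own number, with r from 0.044 to 0.092. With the replicate block 8 of the 10 were called with siIGF2BP2 and 3 with siIGF2BP3, and called genes with Dox in sgAAVS1 cells went from 1820 to 1913. The causes were not tested.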

Other observations

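The keratin pair that was expressed moved in opposite directions with siIGF2BP2: KRT8 rose by 0.55 on the log2 scale (adjusted p = 6.9e-12) and KRT18 fell by 0.49 (adjusted p = 2.31e-15). Among the tested epithelial markers these were the calls in the 3 Dox and 2 siRNA comparisons. Apart from the keratins, NT5E and FAS each had siIGF2BP2 and sgIGF2BP2 Dox values of opposite signs.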
